A study of Mus musculus with 4 samples.

Results

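Integrin and laminin subunit genes were followed in LL2 cells, a line derived from the Lewis lung carcinoma of the mouse, after 24 h with lactic acid. Members were taken by gene symbol alone, as the protein-coding integrin alpha, integrin beta and laminin chain genes of the deposited count table, which gave 37 of 54532 genes (18 integrin alpha, 8 integrin beta and 11 laminin genes). One group received 20 mM lactic acid in the culture medium for 24 h, and the other received PBS, a buffered saline, in the same volume for 24 h. The libraries, 2 of lactic acid and 2 of PBS, are named biological replicates. Nothing in the labels ties them to separate cultures, so p-values measure only the spread between these samples, which may be technical. The medium's acidity is not among the labels, and effects of acid and of lactate cannot be told apart in this design.

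Integrins are receptors at the cell surface made of an alpha and a beta subunit, which link the matrix outside the cell to actin inside it. The alpha subunit largely sets which ligand is bound, and the beta tail recruits talin and kindlin. Laminins are secreted trimers of an alpha, a beta and a gamma chain that build basement membranes and are bound by a subset of integrins. In carcinomas both families are studied for their part in attachment, invasion and survival.

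Reads counted in genes came to 15501006 and 16331584 in the lactic acid libraries and 16164237 and 17409990 in the PBS libraries. LL2 is a carcinoma line, yet of 8 epithelial markers only Krt8, Krt18 and Krt19 had enough reads to test, and Epcam and Cdh1 had at most 2 reads in any library. The epithelial markers summed to 153 and 154 CPM with lactic acid, against 222 and 215 CPM (reads scaled to a common library size) with PBS, and 1 of the 3 tested fell. Krt8 fell by 1.14 on the log2 scale (edgeR adjusted p = 1.93e-27), while Krt18 (log2 fold change -0.00, edgeR adjusted p = 0.960) and Krt19 (log2 fold change -1.14, edgeR adjusted p = 0.151) did not pass. The 8 mesenchymal markers, led by Vim and Fn1, summed to 5479 and 5526 CPM with lactic acid, against 5523 and 5535 CPM with PBS, but their members moved both ways (2 rose and 3 fell of 7 tested). A mesenchymal marker among those that fell had enough reads to test only through the PBS libraries, so these counts are a description. The part of these markers in the results for integrin and laminin genes was not tested.

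Of the 37 members, 23 had enough reads to test, and 16 of these rose with lactic acid, 3 fell and 4 did not pass. The test was edgeR's quasi-likelihood test on read counts at a Benjamini-Hochberg adjusted p below 0.05 over all 13922 genes tested. Of all genes tested, 49.0% were called, 24.7% higher and 24.3% lower. DESeq2 called fewer in both directions, 2251 genes higher where edgeR called 3445 and 2494 lower where edgeR called 3377. In bulk RNA, fewer cells with a transcript and less of it per cell cannot be told apart. The median log2 fold change was 0.37 over the 23 members and 0.01 over all genes tested. In 20 of the 23 members the CPM of the lactic acid libraries did not overlap those of the PBS libraries, as in 72.3% of all genes tested. Among alpha subunits 9 rose, 1 fell and 1 did not pass. Among beta subunits 3 rose, 2 fell and 2 did not pass, and among laminin chains 4 rose, none fell and 1 did not pass. The members were chosen with earlier results of these data known, and Itga2 and Itgb3 reached 10 reads in every library of a group only with lactic acid. These counts are therefore a description.

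**Figure D1:**
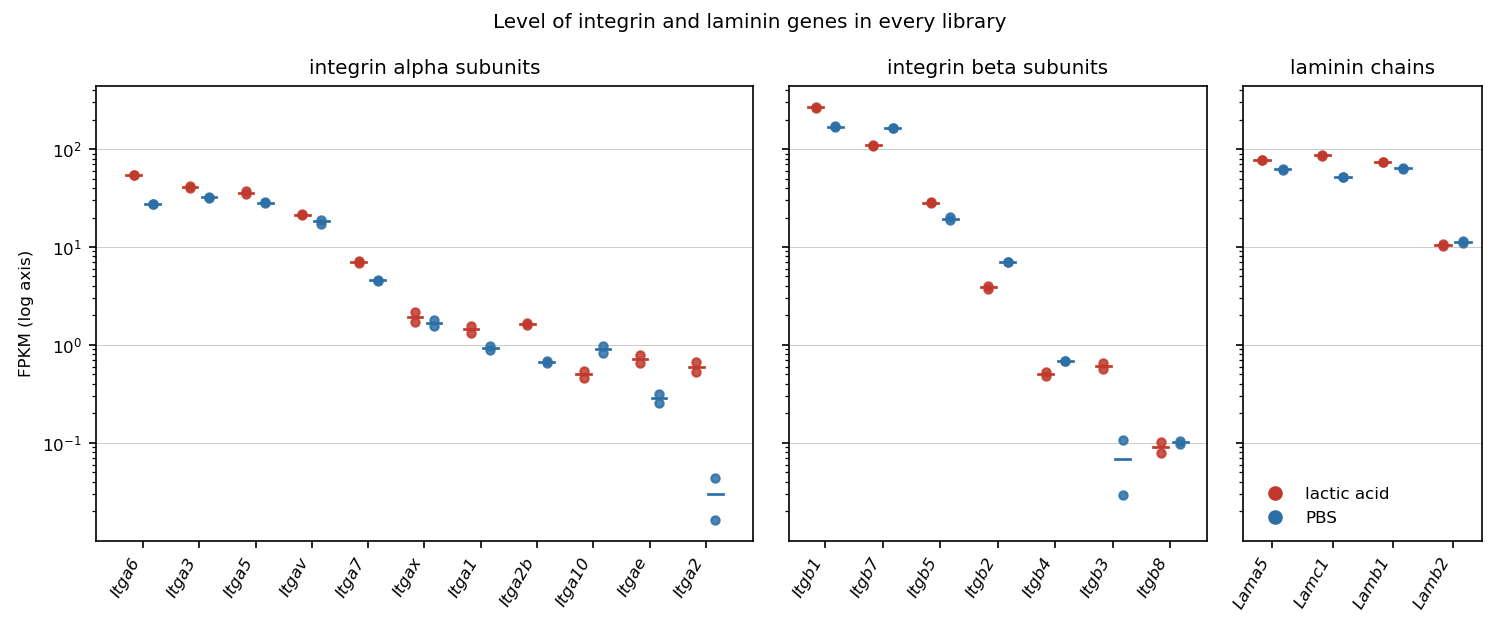
FPKM on a log axis (fragments per kilobase of gene and per unit of library size, as deposited) of 22 tested integrin and laminin genes, with a point for each library and a line for the group mean of 2 libraries. Itgb1, Itgb7 and the laminin genes Lama5, Lamb1 and Lamc1 had the highest levels of their classes, and the PBS libraries lay far below the lactic acid libraries for Itga2 and Itgb3.

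Promoter sequence was read for members that moved in different directions, to show what stands before their starts. The table of promoters used here, made from RefSeq (GRCm38.p6), was matched by 23 of the 37 members and by 15 of the 23 tested, and the 250 bases before the start are printed 5′ to 3′ for 4 of them. These are Itga2, which rose steeply, the abundant Itgb1 and Lama5, which rose, and Itgb7, which fell. Capitals mark a GC box (GGGCGG, either strand), the only motif of those searched that these 4 windows held. They lie at chr13:114932101-114932350 on the minus strand (Itga2), chr8:128685404-128685653 on the plus strand (Itgb1), chr2:180225860-180226109 on the minus strand (Lama5) and chr15:102231936-102232185 on the minus strand (Itgb7).
Itga2: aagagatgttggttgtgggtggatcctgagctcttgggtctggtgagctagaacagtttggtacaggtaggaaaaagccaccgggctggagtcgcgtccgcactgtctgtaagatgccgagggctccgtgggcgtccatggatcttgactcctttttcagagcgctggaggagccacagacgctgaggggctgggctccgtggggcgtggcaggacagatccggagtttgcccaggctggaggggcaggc
Itgb1: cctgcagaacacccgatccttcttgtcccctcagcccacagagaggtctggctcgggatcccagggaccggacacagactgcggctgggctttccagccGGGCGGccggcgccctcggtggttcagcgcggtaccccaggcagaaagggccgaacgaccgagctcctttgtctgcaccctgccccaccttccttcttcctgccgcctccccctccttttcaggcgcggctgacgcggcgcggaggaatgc
Lama5: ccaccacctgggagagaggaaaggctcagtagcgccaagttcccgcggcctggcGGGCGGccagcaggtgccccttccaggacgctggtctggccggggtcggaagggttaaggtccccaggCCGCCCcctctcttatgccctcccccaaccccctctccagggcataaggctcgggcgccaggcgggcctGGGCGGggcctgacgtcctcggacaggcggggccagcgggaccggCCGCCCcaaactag
Itgb7: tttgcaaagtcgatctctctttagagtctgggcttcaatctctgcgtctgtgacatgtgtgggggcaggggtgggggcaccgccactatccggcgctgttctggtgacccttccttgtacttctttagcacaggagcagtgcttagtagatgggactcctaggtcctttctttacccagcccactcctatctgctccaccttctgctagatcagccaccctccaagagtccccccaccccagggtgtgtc

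The Lama5 window held 4 GC boxes and the Itgb1 window 1, while the windows of Itga2 and Itgb7 held none. A member was counted where any of its windows held the motif (Itga3 has 2 windows, the others 1 each), while the shares of all promoters are per window, so the 2 are not in the same unit. Among the 15 tested members with an entry, 6 had a GC box, against 32.7% of 32851 promoters. A CCAAT box (CCAAT) stood in 4 of the 15, against 33.8% of all promoters. The AP-1 motif TGANTCA stood in 1 of the 15, that of Itgax, against 6.75% of all promoters. Neither the E-box CACGTG nor the TATA box TATAAA was found in any of the 15, and they occurred in 6.02% and 12.4% of all promoters. Both strands were searched, and a match or its absence describes only the letters of this window.

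The 3 laminin-binding alpha subunits all rose, and Itga6 did so by the largest fold of the 3. Itga6 (chromosome 2, 71745616 to 71858416, plus strand) encodes the alpha subunit that binds laminins together with the product of Itgb1 or Itgb4. It stood at 54.1 and 54.4 FPKM in the lactic acid libraries, against 27.8 and 27.8 FPKM in the PBS libraries. The groups were far apart and the libraries of a group nearly equal (1.97-fold, log2 fold change 0.98, SE 0.03, edgeR adjusted p = 1.20e-34). Itga3, whose product binds laminins rich in the Lama5 chain, was at 42.0 and 40.3 FPKM with lactic acid, against 31.8 and 32.5 FPKM with PBS (1.29-fold, log2 fold change 0.37, SE 0.04, edgeR adjusted p = 6.37e-13). Itga7, best known as a laminin receptor of muscle, was at 7.16 and 6.81 FPKM with lactic acid, against 4.62 and 4.51 FPKM with PBS (1.54-fold, edgeR adjusted p = 1.25e-11). No library of one group reached the level of the other group in any of these 3 genes. A processed pseudogene, Gm29397, shares near-identical sequence with Itga6 and held 59 and 44 reads with lactic acid and 24 and 27 reads with PBS, where Itga6 itself held 7756 and 8190, against 3981 and 4302 reads.

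Of the subunits that bind ligands with the RGD sequence, the 3 tested rose. Itga5, which pairs with Itgb1 as the main fibronectin receptor, was at 37.0 and 34.4 FPKM with lactic acid, against 28.7 and 28.2 FPKM with PBS (1.27-fold, edgeR adjusted p = 1.39e-10). Itgav, which pairs with several beta subunits and binds vitronectin and latent TGF-beta, was at 21.9 and 21 FPKM with lactic acid, against 17.4 and 19.1 FPKM with PBS. Its rise was the smallest among the alpha subunits that passed, 1.19-fold (log2 fold change 0.25, SE 0.04, edgeR adjusted p = 5.21e-07). Itga2b, the alpha subunit of the platelet fibrinogen receptor, was low, with 145 and 145 reads in the lactic acid libraries, against 57 and 64 reads in the PBS libraries. It rose 2.45-fold (log2 fold change 1.29, SE 0.19, edgeR adjusted p = 5.45e-08). Itga8, the fourth RGD-binding subunit and a receptor for nephronectin, had 1 read in 1 lactic acid library and none with PBS.

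Collagen-binding alpha subunits went in both directions. Itga2 (chromosome 13, 114833081 to 114932100, minus strand), whose product binds collagen with that of Itgb1, had 76 and 63 reads with lactic acid, against 5 and 2 reads with PBS. The ratio of summed counts, scaled to library size, was 20.3 with a 95% interval of 9.59 to 51.4 that covers counting error only, and edgeR called the gene (log2 fold change 4.30, SE 0.45, adjusted p = 2.76e-12). Without PBS replicate 1 the log2 fold change was 5.12, and without PBS replicate 2 it was 3.73. Itga2 had enough reads to test only through the lactic acid libraries, where it was high, so these values are a description. Itga2 was a minor subunit in both groups, at 0.671 and 0.529 FPKM with lactic acid, against 0.0442 and 0.0163 FPKM with PBS.

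Itga1 lies beside Itga2 on the same strand (chromosome 13, 114953096 to 115101964) and encodes another collagen receptor. It was at 1.55 and 1.33 FPKM with lactic acid, against 0.881 and 0.984 FPKM with PBS (1.55-fold, edgeR adjusted p = 3.50e-07). The gene Pelo lies within Itga1 on the same strand, with 100 and 73 reads with lactic acid and 90 and 67 with PBS, and it did not pass (edgeR log2 fold change 0.17, adjusted p = 0.549). Itga10, a collagen receptor of cartilage, was the only alpha subunit tested that fell. It was at 0.546 and 0.462 FPKM with lactic acid, against 0.826 and 0.978 FPKM with PBS, and fell by 0.83 on the log2 scale (SE 0.25, edgeR adjusted p = 0.00407). That call was lost with DESeq2 (adjusted p = 0.0561) and in edgeR without PBS replicate 2 (adjusted p = 0.0587), in a range of 0.00339 to 0.0587 over 13 alternatives. Itga11, the fourth collagen receptor, had 3 and 13 reads with lactic acid, against 3 and 3 with PBS, and was not tested.

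Among the alpha subunits of leukocyte integrins, Itgae and Itgax could be tested. Itgae, which pairs with Itgb7 to bind E-cadherin, had 58 and 50 reads with lactic acid, against 23 and 20 with PBS (2.56-fold, log2 fold change 1.36, SE 0.32, edgeR adjusted p = 3.54e-04). Haspin, an intronless gene on the other strand within Itgae, held 611 and 570 reads with lactic acid and 656 and 709 with PBS, and was slightly lower (edgeR log2 fold change -0.18, adjusted p = 0.0483). The handling of strand is not known here, and whether reads of either gene were counted for the other was not tested. Itgax, the alpha subunit of a complement receptor of dendritic cells, was at 1.70 and 2.16 FPKM with lactic acid and at 1.78 and 1.58 FPKM with PBS. The groups overlapped and the difference did not pass (log2 fold change 0.22, SE 0.16, edgeR adjusted p = 0.272). Itgal had 9 and 4 reads with lactic acid, against 1 and 4 with PBS. Itgam, which encodes the alpha subunit of another complement receptor, Itgad and Itga9 had no read in any library, and Itga4 had 1 read in 1 lactic acid library. A count of 0 allows up to 3 reads in a library, or 0.172 to 0.194 CPM, by counting error alone.

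Itgb1, Itgb5 and Itgb3 rose while Itgb7 and Itgb2 fell. Itgb1 (chromosome 8, 128685654 to 128733200, plus strand) encodes the beta subunit shared by most matrix receptors. It was at 271.0 and 264 FPKM with lactic acid, against 171 and 168 FPKM with PBS (1.59-fold, log2 fold change 0.67, SE 0.02, edgeR adjusted p = 5.03e-32). Itgb5, which pairs with Itgav to bind vitronectin, was at 28.0 and 28.6 FPKM with lactic acid, against 20.2 and 18.7 FPKM with PBS (1.47-fold, edgeR adjusted p = 3.44e-14). Both genes had libraries of a group close together and groups well apart. A processed pseudogene like Itgb5, Gm38317, held 10 to 27 reads a library, against 1138 to 1694 reads of Itgb5.

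Itgb3, the beta subunit of the platelet fibrinogen receptor and of a vitronectin receptor, had 61 and 56 reads with lactic acid, against 10 and 3 reads with PBS. The ratio of summed counts was 9.20, with a 95% interval of 5.18 to 17.8 for counting error only (edgeR log2 fold change 3.17, SE 0.42, adjusted p = 4.37e-09). Without PBS replicate 1 the log2 fold change was 4.31, and without PBS replicate 2 it was 2.50. The groups did not overlap, but the PBS libraries lay over 3-fold apart in reads. Like Itga2, Itgb3 had enough reads to test only through the lactic acid libraries, so these values are a description. Itgb3 was at 0.651 and 0.568 FPKM with lactic acid, against 0.107 and 0.0296 FPKM with PBS.

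Itgb7 (chromosome 15, 102215995 to 102231944, minus strand) encodes the beta subunit of gut-homing lymphocyte integrins, and its level in these cells was high. It was at 111 and 109 FPKM with lactic acid, against 163 and 163 FPKM with PBS, and fell by 0.56 on the log2 scale (SE 0.03, edgeR adjusted p = 2.62e-23). Itgb2, the common beta subunit of leukocyte integrins, was at 3.98 and 3.75 FPKM with lactic acid, against 6.998 and 6.993 FPKM with PBS, and fell by 0.84 (SE 0.11, edgeR adjusted p = 7.41e-09). In both genes each lactic acid library lay below each PBS library. Itgb4, which pairs with Itga6 in hemidesmosomes, was at 0.530 and 0.487 FPKM with lactic acid and 0.683 and 0.690 FPKM with PBS. These groups did not overlap, yet the gene did not pass (log2 fold change -0.42, SE 0.23, edgeR adjusted p = 0.118). Itgb8, which pairs with Itgav to activate TGF-beta, had 14 and 19 reads with lactic acid and 17 and 20 with PBS (log2 fold change -0.13, SE 0.45, edgeR adjusted p = 0.836), and Itgb6, an epithelial subunit, had none.

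**Figure D2:**
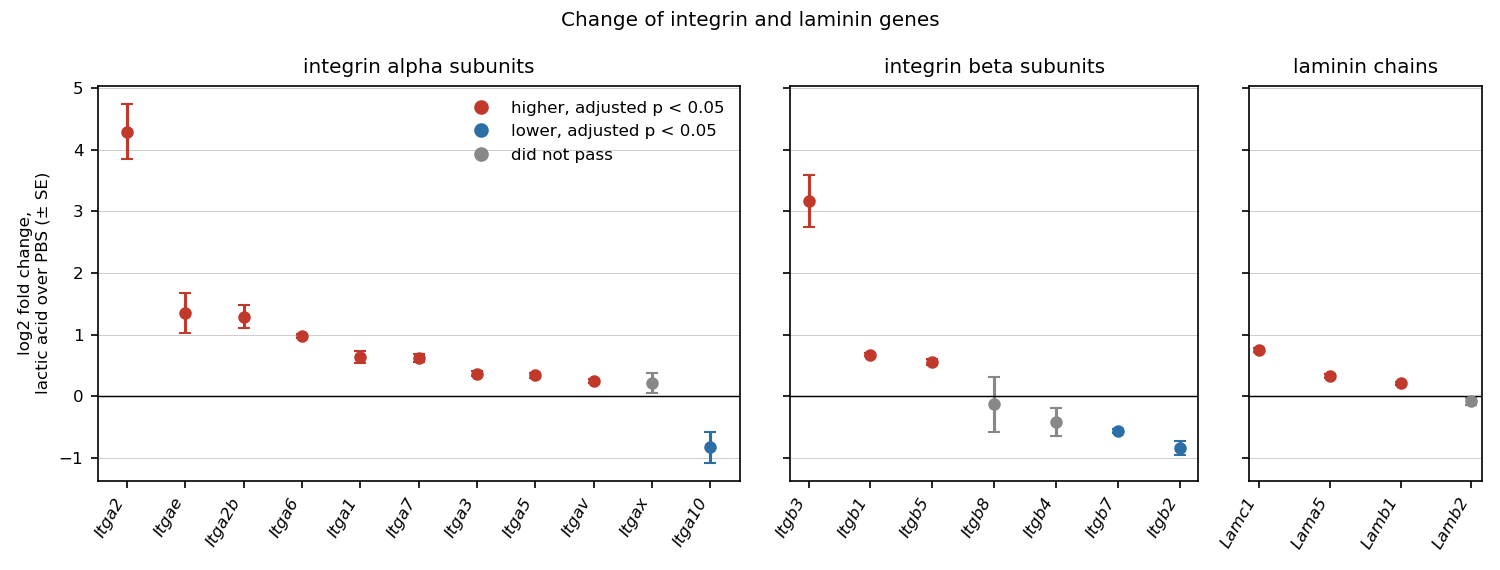
log2 fold change of lactic acid over PBS with its standard error for 22 tested members, ordered within each class by size. Itga2 and Itgb3 stand highest among the integrin subunits at 4.30 and 3.17, and Itga10, Itgb7 and Itgb2 are the 3 that fell. Itga2 and Itgb3 had enough reads to test only through the lactic acid libraries.

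Markers of leukocytes and platelets were low in both groups, and several were at 0. The 8 leukocyte markers summed to 8.83 and 10.3 CPM with lactic acid, against 6.80 and 6.77 CPM with PBS. Of these, Cd3e and Adgre1 had no read, and Ptprc had 1 read in 1 PBS library. Cd68, a lysosomal protein common in macrophages, had 106 and 130 reads with lactic acid, against 62 and 68 with PBS, and rose (edgeR log2 fold change 0.89, adjusted p = 1.57e-04). Lyz2, a lysozyme of myeloid cells, had 29 and 39 reads with lactic acid and 41 and 38 with PBS, and did not pass (edgeR log2 fold change -0.19, adjusted p = 0.659). The 5 platelet and megakaryocyte markers summed to 1.97 and 2.72 CPM with lactic acid, against 1.89 and 3.15 CPM with PBS, and Pf4 and Gp1bb had no read. Ppbp, a chemokine of platelets, had 31 and 45 reads with lactic acid and 30 and 51 with PBS, and did not pass (edgeR log2 fold change -0.06, adjusted p = 0.902). In the lactic acid libraries Lyz2 and Ppbp had 29 to 45 reads, where Itgb3 and Itgae had 50 to 61, and the part of these markers in the integrin results was not tested. The 5 endothelial markers summed to 0.699 and 1.03 CPM with lactic acid, against 0.630 and 0.642 CPM with PBS.

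Per gene length, the order of the alpha subunits differed between the groups. With lactic acid, Itga6 led at 54.2 ± 0.176 FPKM, above Itga3 at 41.2 ± 1.15, Itga5 at 35.7 ± 1.86 and Itgav at 21.5 ± 0.656 FPKM (SD, n = 2). With PBS, Itga3 led at 32.2 ± 0.461 FPKM, and Itga5 at 28.5 ± 0.358 and Itga6 at 27.8 ± 0.00313 FPKM lay close behind, above Itgav at 18.2 ± 1.19 FPKM. Itga6 made up 32% and 33.2% of the summed alpha FPKM with lactic acid, against 24.2% and 23.8% with PBS. The sum over the 18 alpha genes was 167 ± 3.84 FPKM with lactic acid and 116 ± 1.22 FPKM with PBS. FPKM divide by the gene length of the table, which may not be that of the isoform in use, so orders between genes are approximate. In CPM, which are not divided by length, Itga6 led in both groups, at 494 with lactic acid and 251 with PBS. With PBS, Itgav averaged 196 CPM and Itga3 184 CPM.

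The makeup of the beta subunits differed more than their sum. Itgb1 held 65.3% and 65.0% of the summed beta FPKM with lactic acid, against 47.2% and 47.0% with PBS. Itgb7 held 26.7% and 26.7% with lactic acid, against 45.1% and 45.6% with PBS. With PBS the levels of Itgb1 (169 ± 1.68 FPKM) and Itgb7 (163 ± 0.181 FPKM) were close, while with lactic acid they were 268 ± 4.80 and 110 ± 1.61 FPKM. That closeness rests on division by gene length, since in CPM with PBS Itgb1 averaged 692 and Itgb7 452. The shares rest on this division too. The beta sum was 411 ± 6.27 FPKM with lactic acid and 360 ± 2.58 FPKM with PBS (SD, n = 2).

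**Figure D3:**
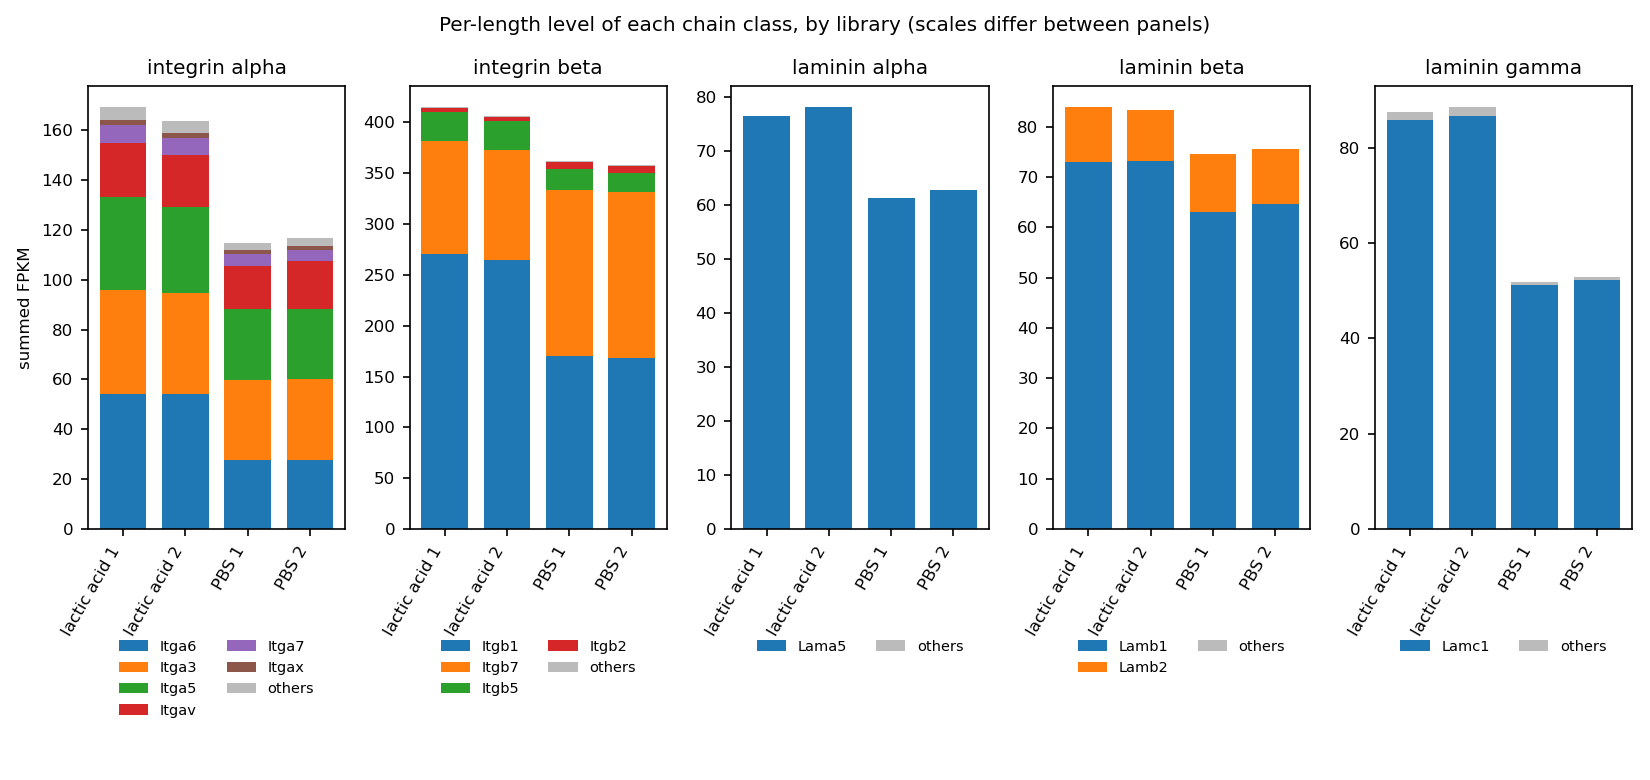
Summed FPKM of the genes of each chain class in each library, with bars split by gene (the y axis starts at 0 and its scale differs between panels). Itgb7 takes a smaller part of the beta bars with lactic acid than with PBS, and nearly all of the laminin alpha and gamma bars is Lama5 and Lamc1.

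Levels of beta subunits and of the alpha subunits they can pair with were then set side by side. The 12 alpha partners of Itgb1 summed to 165 and 159 FPKM with lactic acid, against 112 and 114 FPKM with PBS, below Itgb1 itself in every library. That order rests on division by gene length and does not hold in CPM, which are not divided by length. The known partners of Itgb7, Itga4 and Itgae, summed to 0.797 and 0.658 FPKM with lactic acid, against 0.316 and 0.255 FPKM with PBS. Itgb7 mRNA was thus present at over 100 FPKM with partner mRNA below 1 FPKM in every library. The 4 partners of Itgb2 summed to 1.79 and 2.19 FPKM with lactic acid, against 1.79 and 1.61 FPKM with PBS, nearly all of it Itgax. For Itgb5 and its partner Itgav the levels were close, 28.3 ± 0.371 beside 21.5 ± 0.656 FPKM with lactic acid and 19.4 ± 1.04 beside 18.2 ± 1.19 FPKM with PBS. In CPM they were further apart, 101 beside 233 with lactic acid and 69.1 beside 196 with PBS. Protein was not measured here, and mRNA levels do not give the number of dimers.

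**Figure D4:**
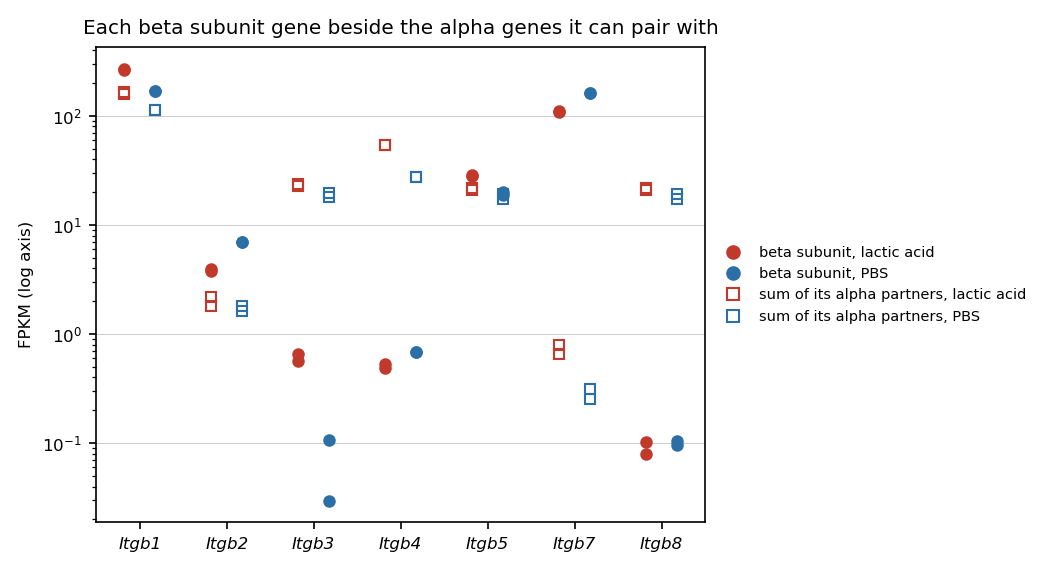
FPKM on a log axis of each beta subunit gene (filled circles) and the summed FPKM of the alpha genes it can pair with (open squares) in each library, without Itgb6, which had no read. For Itgb7 the circles lie above 100 FPKM and the squares below 1 FPKM, and for Itgb3, Itgb4 and Itgb8 the circles lie below the squares.

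Lama5 and Lamc1 made up nearly all of the laminin alpha and gamma FPKM and Lamb1 most of the beta FPKM, and each of these 3 genes rose. Lama5 (chromosome 2, 180176373 to 180225859, minus strand), the alpha chain common in adult basement membranes, was at 76.5 and 78.2 FPKM with lactic acid, against 61.4 and 62.9 FPKM with PBS (1.25-fold, log2 fold change 0.33, SE 0.03, edgeR adjusted p = 3.60e-17). Lamb1, the widespread beta chain, was at 73.1 and 73.2 FPKM with lactic acid, against 63.0 and 64.7 FPKM with PBS (1.15-fold, edgeR adjusted p = 8.50e-10). Lamc1 (chromosome 1, 153218922 to 153332786, minus strand), the gamma chain of most laminins, was at 85.9 and 86.6 FPKM with lactic acid, against 51.3 and 52.3 FPKM with PBS. It rose 1.68-fold (log2 fold change 0.75, SE 0.03, edgeR adjusted p = 1.09e-31). In all 3 genes the lactic acid libraries lay above the PBS libraries.

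Lamb2, the beta chain of synaptic and kidney laminins, was at 10.9 and 10.1 FPKM with lactic acid and at 11.5 and 10.9 FPKM with PBS. It made up 12.5% ± 0.552 of the beta chain FPKM with lactic acid and 14.9% ± 0.726 with PBS (SD, n = 2). The groups overlapped in CPM, and the gene did not pass (log2 fold change -0.08, SE 0.06, edgeR adjusted p = 0.253). Of the chains left untested, Lama3 had 14 and 5 reads with lactic acid and 2 and 7 with PBS, Lamb3 had 3 and 3 reads with lactic acid and none with PBS, and Lamc3 had 2 and 1 reads with lactic acid and 5 and 10 with PBS. Lama2, Lama1 and Lama4 had at most 7 reads in any library. By class, summed FPKM were 77.4 ± 1.15 with lactic acid and 62.2 ± 1.09 with PBS for alpha chains, 83.6 ± 0.408 and 75 ± 0.773 for beta chains, and 88.0 ± 0.714 and 52.3 ± 0.712 for gamma chains (lactic acid before PBS in each pair, SD, n = 2). With PBS the gamma chains were the lowest of the 3 classes, and with lactic acid they were the highest. The order with lactic acid rests on division by gene length. In CPM, which are not divided by length, Lama5 averaged 888, Lamb1 732 and Lamc1 720 with lactic acid.

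Other genes of adhesion were read from 4 lists written from textbook knowledge, with earlier results of these data known. Of the 34 adhesion adaptors and kinases tested (of 35), 10 rose, 12 fell and 12 did not pass, with a median log2 fold change of 0.00. Parvb, a parvin that binds integrin-linked kinase, averaged 225 ± 0.0225 CPM in lactic acid libraries and 124 ± 6.87 CPM in PBS libraries, 1.82-fold higher with lactic acid. Actn4, an actinin that cross-links actin, and Elmo2, an activator of Rac, rose 1.23-fold and 1.35-fold. Tns2, a tensin, fell by 0.80, Zyx, the LIM protein zyxin of focal adhesions, by 0.39 and Bcar1, a scaffold phosphorylated on adhesion, by 0.36 on the log2 scale. Their adjusted p in edgeR ran from 7.13e-27 (Parvb) to 7.15e-12 (Bcar1).

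Of the 23 regulators and membrane partners of integrins, 11 rose, 3 fell and 9 did not pass, with a median log2 fold change of 0.07. Plaur, the urokinase receptor, which binds integrins at the membrane, averaged 79.4 ± 1.99 CPM in lactic acid libraries and 42.2 ± 0.883 CPM in PBS libraries, 1.88-fold higher with lactic acid. The tetraspanin gene Cd9 and Dab2, an adaptor of integrin endocytosis, rose 1.39-fold and 1.34-fold. Snx17, which recycles beta subunits from endosomes, fell by 0.40, Bsg, the membrane glycoprotein basigin, by 0.21 and Cd151, a tetraspanin that binds the laminin-binding integrins, by 0.19 on the log2 scale. Their edgeR adjusted p ran from 1.44e-19 (Plaur) to 0.00554 (Cd151).

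Of the 22 integrin ligands tested (of 29), 12 rose, 6 fell and 4 did not pass, with a median log2 fold change of 0.37. With limma on log2(FPKM + 1), 3 were called lower. Fn1, which encodes fibronectin and also stands in the mesenchymal marker list, averaged 1999 ± 4.69 CPM in lactic acid libraries and 1319 ± 18.8 CPM in PBS libraries, 1.52-fold higher with lactic acid. Tnc, the matrix protein tenascin C, averaged 12.3 ± 0.439 CPM in lactic acid libraries and 1.31 ± 0.114 CPM in PBS libraries, 9.41-fold higher with lactic acid, and Cyr61, a matricellular protein, rose 2.51-fold. Col3a1, a fibrillar collagen, averaged 412 ± 12.5 CPM in lactic acid libraries and 977 ± 10.1 CPM in PBS libraries, and fell by 1.25 on the log2 scale. Thbs2, a thrombospondin, fell by 0.98 and Vcam1, a ligand of the Itga4 product, by 0.28 on that scale. Their edgeR adjusted p ran from 5.67e-43 (Col3a1) to 9.03e-09 (Vcam1).

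Of the 19 basement membrane partners of laminin tested (of 26), 8 rose, 3 fell and 8 did not pass, with a median log2 fold change of 0.16. Col18a1, a collagen of basement membranes, averaged 850.4 ± 11.2 CPM in lactic acid libraries and 370.3 ± 1.74 CPM in PBS libraries, 2.30-fold higher with lactic acid. Agrn, a proteoglycan that binds laminin, rose 1.64-fold and Ntn4, a netrin that binds laminin gamma chains, 2.46-fold. Ntn1, another netrin, fell by 0.78 on the log2 scale and Dag1, which encodes the laminin receptor dystroglycan, by 0.23. Their edgeR adjusted p ran from 5.64e-42 (Col18a1) to 6.06e-07 (Dag1). The share called was 64.7%, 60.9%, 81.8% and 57.9% of the genes tested in the 4 lists, in the order given, against the 49.0% of all genes. Some called genes of the adaptor and ligand lists had enough reads to test only through the group where they were high. For that reason, and since the lists were chosen with earlier results of these data known, these counts and shares are a description.

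**Figure D5:**
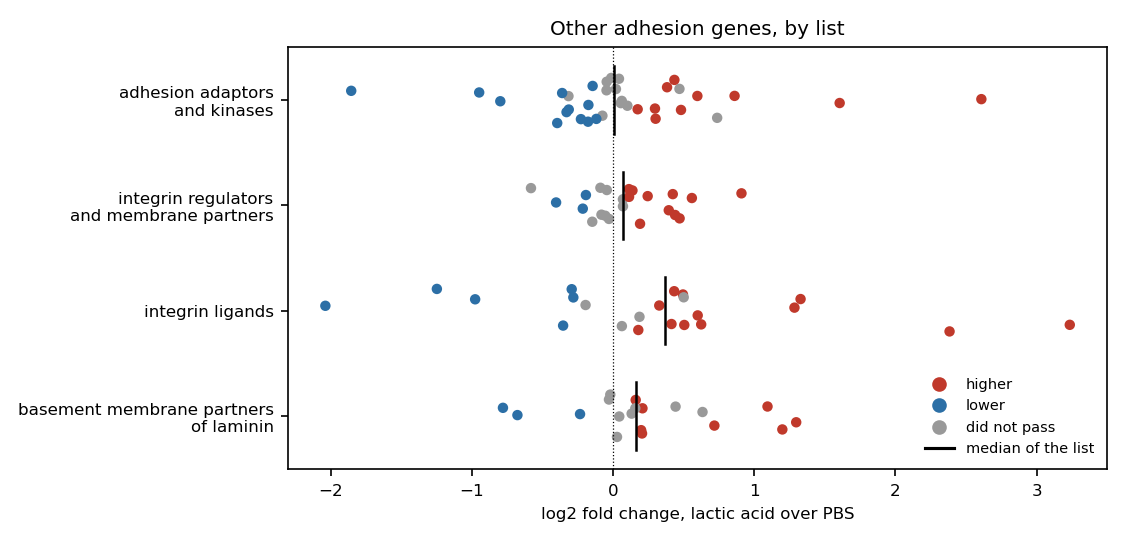
log2 fold change of lactic acid over PBS for each tested gene of the 4 lists of other adhesion genes (points), with the median of each list as a vertical line. Red and blue points passed the test in edgeR, and the medians lie between 0.00 and 0.37.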

How the data were processed

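RNA of LL2 cells was selected for poly(A), made into libraries with a NEBNext Ultra kit and read in pairs of 150 bases, per the labels' protocols. The authors deposited whole-number read counts per gene, with no scaling, and FPKM of the same genes, which are the counts over gene length times 1 constant per library. The submitters' processing notes name the tools featureCounts 1.5.0-p3, HISAT2 2.0.5, DESeq2 1.16.1, StringTie 1.3.3b and CASAVA and the build GRCm38.p6, without their roles. The handling of strand, multi-mapped reads and overlapping genes is not given in the sources used here. Gene lengths, in bases, are those of the deposited tables.

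Counts were tested with edgeR 4.0.16 (R 4.3.3): filterByExpr (minimum count 10, minimum total 15) kept 13922 of 54532 genes, sizes were scaled by TMM, and a robust quasi-likelihood fit with group as the only term was tested two-sided with Benjamini-Hochberg adjustment. SE is the log2 fold change divided by the root of F. With 2 libraries against 2, an exact two-sided permutation test of 1 value cannot go below p = 0.333. The procedure was tested on simulated data. Replicates of a group differed by more than sampling noise (chi-square per degree of freedom 2.85 and 2.37). All 37 members had the same position in GENCODE M21. Near-identical copies were sought with blastn 2.17.0 (98% identity over 300 bases), and 8 members had one, of which 6 were genes at the same locus. Members, gene lists and tests were chosen with earlier results of these data known. Named list genes are the 3 called genes with the smallest p in each direction. A few genes that enter the counts and sums are not reported here by name. Alternatives were other scalings, filters, DESeq2 1.42.0, limma 3.58.1 on log2(FPKM + 0.1) and log2(FPKM + 1), a replicate block and leaving out each library.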

Additional observations from a re-analysis of the deposited data

How the results depend on the processing

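Over 13 alternatives, 296 of 299 refits of the 23 tested members kept direction and call. The call of Itga10 was lost with DESeq2 and without PBS replicate 2, leaving 0 alpha subunits called lower in each. Leaving out 1 library in turn gave 0 to 1 alpha subunits called lower; the lone library left in a group is then assumed to vary like the others. Itgb8, which did not pass, ran from a log2 fold change of -0.33 without lactic acid replicate 2 to 0.034 without lactic acid replicate 1, where its sign turned. The counts called higher in the alpha, beta and laminin classes (9, 3 and 4) were the same under every alternative. DESeq2 called 2251 of all genes higher, against 3445 in edgeR, and 2494 lower, against 3377. The limma fit on log2(FPKM + 1) called 3 integrin ligands lower, against 6 in edgeR. A pseudocount of 1 FPKM compresses low genes by construction, and Itga2 was at a log2 fold change of 0.63 on that scale. With RPKM on TMM-scaled sizes the summed laminin beta and gamma levels with lactic acid were 84.4 and 88.8, in place of 83.6 and 88.0 FPKM. Both units divide by the same gene lengths, so the order of these classes within a library could not change between them. Numbers 1 and 2 are shared between the groups in the labels, but deviations of same-numbered libraries did not correlate (0.0038 across genes). The replicate block called 3459 genes higher and 3393 lower and changed no call of a member. Itga2 and Itgb3 rest on 2 to 10 reads in a PBS library, which limits the precision of their fold changes.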
